A study of Rhizophagus irregularis DAOM 181602=DAOM 197198 with 30 samples.

Results

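The 2 gene models described here encode predicted proteins of Rhizophagus irregularis, an arbuscular mycorrhizal fungus that lives in plant roots. Model 349023 carries a LysM domain and model 347597 is annotated as collagen-like. They are 2 of the 30282 models of the JGI catalogue Gloin1, and both were picked by their protein ID after a difference between treated and control spores at 7 d had drawn attention to them. The 7 d values are therefore given as a description, without a test, and so are the levels of the 2 d controls as a course over time. Both names come from the deposited annotation, which lists the InterPro entry for peptidoglycan-binding LysM 2 times for 349023, and for 347597 it holds a single note, KOG3544, collagens and related proteins. No annotation text used here places either product at the cell surface, and a location there was not tested.

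The study measured poly-A messenger RNA by paired Illumina sequencing in germinating spores of strain DAOM197198. In the time course, cultures of 80000 spores were germinated for 2 d in liquid M medium in the dark under 2% CO2, then treated with 1e-06 M of the synthetic strigolactone GR24 or with acetone alone, 1 in 1000, and were collected 1 h, 2 d, 7 d or 14 d later. In the root set, 60000 spores lay for 14 d on cellophane over carrot hairy roots, or on the same gelled medium without roots, and received neither GR24 nor acetone by the labels. With counts there were 3 GR24 and 2 acetone libraries at 1 h, 2 and 3 at 2 d, 2 and 2 at 7 d, 3 and 3 at 14 d, and in the root set 3 titled root exudates and 2 titled controls. The labels name 30 samples, of which 25 were analysed here. Not analysed here were replicate 1 of acetone at 1 h, replicate 2 of GR24 at 2 d, replicate 1 of GR24 and replicate 3 of acetone at 7 d, and replicate 3 of the root-set controls. Each library held 5786080 to 11812317 gene reads. For the root set, the table's own column headings swap the 2 group names relative to the sample titles. Groups are called here by their titles, and any higher or lower between them turns round if the swapped headings are the correct ones. Nothing in the labels tells whether replicates were separate cultures, so that p-values cover the spread among these samples, which may be technical.

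LysM domains are small modules that bind sugars built on N-acetylglucosamine, such as chitin and its fragments or bacterial peptidoglycan. Pathogenic fungi secrete LysM proteins that hold chitin fragments away from plant receptors, and plants themselves use LysM receptors to perceive both chitin and the lipochitin signals of symbiotic microbes. Collagens of animals are extracellular proteins whose glycine-rich repeats wind into a triple helix, and similar repeats occur in fungal and bacterial surface proteins. Strigolactones, which GR24 imitates, are released by roots and stimulate the metabolism and hyphal branching of arbuscular mycorrhizal fungi.

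The LysM model is short. It is 246 bases long, or 82 codons, and 14.9% of all models are as short or shorter. The collagen-like model has 603 bases, or 201 codons, close to the median model of 582 bases. In every library all reads of both models matched 1 model alone, so no read was shared with a near-identical copy in the catalogue. The closest database protein of 349023 is an uncharacterised bacterial protein, and none is listed for 347597.

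Each model went through the same course. Messenger RNA of both was at or near 0 at 1 h, reached group means of 25.9 to 33.9 CPM at 2 d with or without GR24, was present at 7 d in GR24 spores but near 0 in acetone spores, and was near 0 in both at 14 d. In the root set, kept for 14 d in all, the same 2 models were at their highest levels in the series, in both groups. Levels are CPM values, a model's reads as a share of all gene reads of the library on the usual CPM scale, after TMM scaling of all 25 libraries together, with the SD among the libraries of each group. A level is a share of all messenger RNA, so fewer cells expressing a model and less RNA per cell cannot be told apart.

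**Figure D1:**
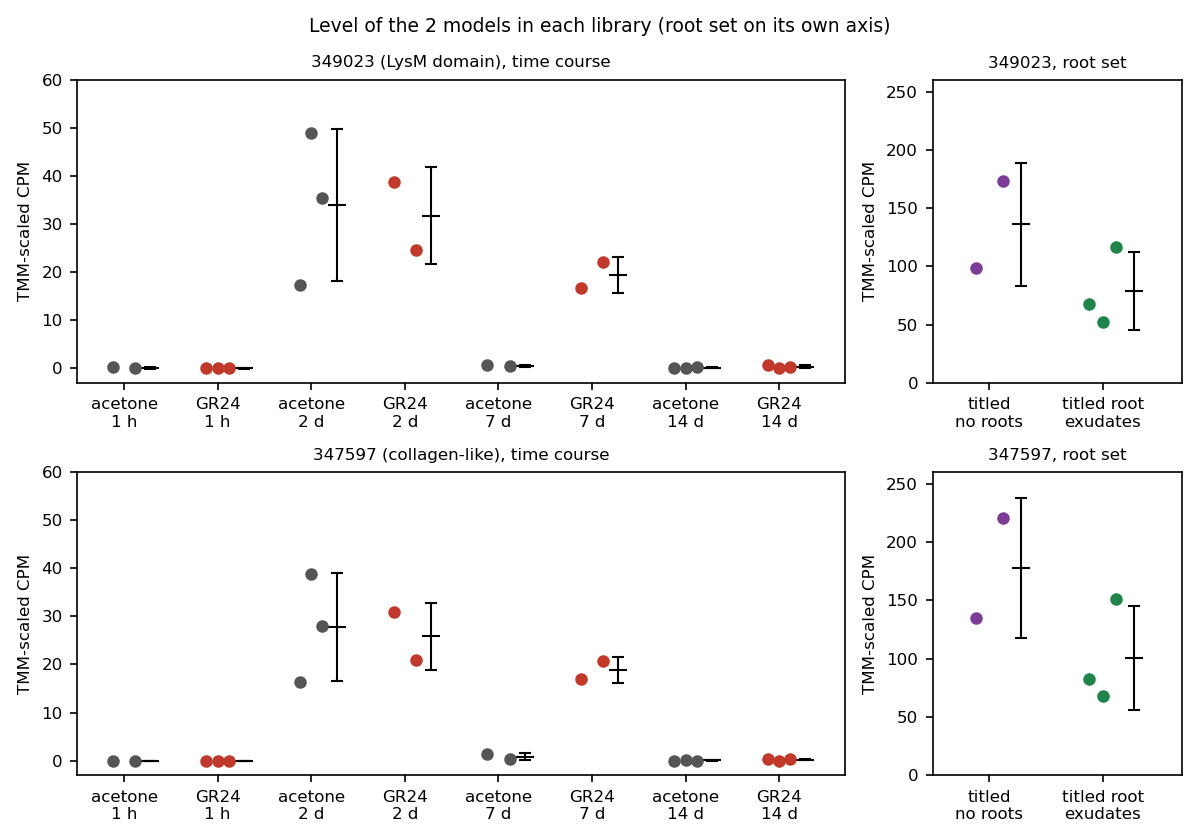
TMM-scaled CPM (y axis) of models 349023 and 347597 in each library (points), grouped by treatment and time, with the group mean and SD beside the points (bar and whiskers). The time course (left, axis to 60) and the root set (right, axis to 260) have separate axes; the 2 d and the GR24 7 d libraries lie between 16.45 and 48.91 CPM, the other time-course libraries at or below 1.41 CPM, and the root-set libraries at 52.21 CPM and above.

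At 1 h the LysM model had 0, 0 and 1 reads in the 3 GR24 libraries, which is 0, 0 and 0.1328 CPM. In the acetone libraries it had 2 and 0 reads, or 0.2157 and 0 CPM. The collagen-like model had 0 reads in all 5 libraries. All of these counts are at or under 3 reads per group, the number below which a level was not read here, and neither model had enough reads for the test at this time. Across the other models the 1 h comparison had 10.4% of 13967 tested models called.

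At 2 d both models were clearly present, and the treatments overlapped. The LysM model was at 38.86 and 24.59 CPM in the GR24 libraries and at 17.39, 48.91 and 35.41 CPM in the acetone libraries, from 111 to 514 reads a library. The group means were 31.7 ± 10.1 CPM with GR24 (SD, n = 2) and 33.9 ± 15.8 CPM with acetone (SD, n = 3). Both GR24 libraries lay inside the range of the acetone libraries.

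The collagen-like model followed the same order of libraries. It was at 30.83 and 20.94 CPM with GR24 and at 16.45, 38.92 and 28.03 CPM with acetone, with means of 25.9 ± 7.00 CPM (SD, n = 2) and 27.8 ± 11.2 CPM (SD, n = 3). Its GR24 libraries, too, lay within the acetone range. The log2 fold change of GR24 against acetone was -0.15 ± 0.53 (SE) for 349023, with a 95% interval from -1.67 to 1.38 and an adjusted p of 0.9285 in edgeR's quasi-likelihood test. For 347597 it was -0.15 ± 0.41 (SE), with an interval from -1.22 to 0.92 and an adjusted p of 0.9014 in the same test. Of the 2 models 0 passed, at unadjusted p of 0.797 and 0.727, and DESeq2 passed 0 as well, with adjusted p of 0.98 and 0.972; of all 14704 models tested, 2.15% were called. The intervals are wide and do not exclude a difference of 2-fold in either direction for 349023. Its sign also depended on single libraries: without replicate 3 of the GR24 group the value for 349023 was 0.16 and for 347597 0.12, and without replicate 2 of the acetone group they were 0.21 and 0.17.

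The difference between 1 h and 2 d was large in either treatment and is given from summed reads, since the 1 h groups held at most 2 reads. For 349023 the acetone spores had 2 reads at 1 h and 956 at 2 d, a 330-fold difference per gene read (95% exact interval 91.1 to 2730), and the GR24 spores 1 and 527 reads, 814-fold (145 to 32190). For 347597 no read was seen at 1 h, so the levels at 2 d were at least 179-fold higher in acetone and at least 223-fold higher in GR24 spores, against a floor of 3 reads over the group. These intervals and floors cover counting error only.

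At 7 d the treatments stood apart. The LysM model was at 16.73 and 22.07 CPM in the GR24 libraries, from 152 and 184 reads, against 0.705 and 0.4349 CPM in the acetone libraries, from 4 and 5 reads. The collagen-like model was at 16.95 and 20.75 CPM with GR24, from 154 and 173 reads, against 1.41 and 0.2609 CPM with acetone, from 8 and 3 reads. For both models every GR24 library was above every acetone library.

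The means at 7 d were 19.4 ± 3.78 against 0.57 ± 0.191 CPM for 349023 (SD, n = 2 each), a 34.0-fold ratio, and 18.9 ± 2.69 against 0.835 ± 0.813 CPM for 347597, a 22.6-fold ratio. The fitted log2 fold changes were 5.16 ± 0.35 and 4.82 ± 0.37 (SE). Without acetone replicate 1 the value for 347597 was 6.10, and without acetone replicate 2 it was 3.72. This contrast chose the models, so no test is attached to it; in it 6.43% of 14269 models were called. Set against their own treatment at 2 d, the mean of the GR24 spores at 7 d was 1.64-fold lower for 349023 and 1.37-fold lower for 347597. The mean of the acetone spores was 59.5-fold lower for 349023 and 33.3-fold lower for 347597. The GR24 7 d libraries lay just under those of GR24 2 d without overlapping them, and within or just below the range of the acetone 2 d libraries.

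At 14 d both messages were near 0 in the GR24 spores too. The LysM model had 7, 0 and 4 reads with GR24 (0.7004, 0 and 0.3758 CPM) and 0, 1 and 2 reads with acetone (0, 0.1096 and 0.1913 CPM). The collagen-like model had 3, 0 and 3 reads with GR24 and 0, 2 and 0 with acetone, none above 0.3002 CPM. The treatments overlapped, and the ratio of GR24 to acetone in summed reads was 3.11 for 349023 (95% exact interval 0.822 to 17.4; 11 against 3 reads) and 2.54 for 347597 (0.455 to 25.8; 6 against 2 reads). Neither model had enough reads for the test at 14 d, where 3.25% of 14080 models were called; in edgeR without the filter on low counts, the adjusted p was 0.6736 and 0.791. Between 7 d and 14 d the mean of the GR24 spores was 54.1-fold lower for 349023 and 97.1-fold lower for 347597.

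No test is read for the 2 models between 1 h and 14 d. In the joint fit of the 1 h, 2 d and 14 d libraries they passed the filter on low counts through the 2 d groups alone, and the groups to be compared held 0 to 11 reads. The same holds for any difference of the GR24 effect at 14 d or 2 d from that at 1 h. Of all models in that fit, 53.2% were called between 14 d and 1 h in acetone spores, 61.4% in GR24 spores, 6.77% for the GR24 effect at 14 d minus that at 1 h and 8.13% for the effect at 2 d minus that at 1 h (edgeR).

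The root set held the highest levels. The LysM model was at 67.46, 52.21 and 116.8 CPM in the libraries titled root exudates and at 98.56 and 173.6 CPM in those titled controls. The collagen-like model was at 82.08, 67.9 and 151.1 CPM in the first and at 135.2 and 220.3 CPM in the second, from 450 to 1788 reads a library. In both models the groups overlapped, since replicate 3 titled root exudates was above replicate 1 titled control.

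The means were 78.8 ± 33.8 CPM (SD, n = 3) titled root exudates and 136 ± 53.1 CPM (SD, n = 2) titled controls for 349023, and 100 ± 44.5 and 178 ± 60.2 CPM for 347597. The log2 fold change of the first title over the second was -0.78 ± 0.50 (SE; 95% interval -2.29 to 0.72) for 349023, with an adjusted p of 0.4044, and -0.82 ± 0.49 (SE; -2.29 to 0.65) for 347597, with an adjusted p of 0.3762 in edgeR's quasi-likelihood test. Of the 2 models 0 passed, at unadjusted p of 0.205 and 0.181, and DESeq2 passed 0; of 14752 models tested 15.2% were called. Chitin synthase model 67965, which was higher with GR24 than with acetone in all 4 times of the course, was at 0.3952, 0 and 0.2339 CPM in the libraries titled root exudates and at 21.65 and 8.87 CPM in those titled controls. The root effect was not compared with the GR24 effect at 14 d for the 2 models, which had 2 to 11 reads in each of the latter groups; of all 15390 models in that fit 11.4% were called.

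Whatever the titles, all 5 libraries of the root set were above all 20 of the time course for both models, as they were for 1149 of the 14558 models with a mean of at least 1 CPM, or 7.89%. Against acetone spores 14 d after treatment, which had germinated for 2 d before it, the libraries titled controls had 1280 times the reads per gene read of 349023 (95% exact interval 437 to 6210; 2251 against 3 reads) and 2510 times those of 347597 (694 to 20730; 2943 against 2 reads). Against acetone spores at 2 d, the highest time of the course, their mean was 4.01-fold higher for 349023 and 6.39-fold higher for 347597. The age of the spores, the medium, the support, the number of spores, the solvent and the set all differ between the 2 experiments and cannot be told apart.

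Ordered by mean, the groups ran the same way for both models: titled controls, titled root exudates, acetone 2 d, GR24 2 d, GR24 7 d, acetone 7 d and GR24 14 d, followed by the groups at 3 reads or fewer. Neighbours whose libraries overlapped were the 2 root-set groups, the 2 groups of 2 d and all groups from acetone 7 d downwards. The steps from the root set to 2 d, from GR24 2 d to GR24 7 d and from GR24 7 d to acetone 7 d had no overlap. This order is a description, since part of it chose the models.

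The replicates of both models were spread more widely than those of most models. Among models at 10 CPM or more, the coefficient of variation in the acetone 2 d libraries had a median of 7.51%, while it was 46.6% for 349023 and 40.4% for 347597, and 0.141% and 0.391% of models had a larger one. In the libraries titled root exudates it was 42.9% and 44.4% against a median of 8.50%, and in those titled controls 39.0% and 33.9% against 5.69%. In the GR24 7 d libraries it was 19.5% and 14.3% against 6.50%. The 2 models were high and low in the same libraries of each of these groups, so that the spread was shared by the pair.

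**Figure D2:**
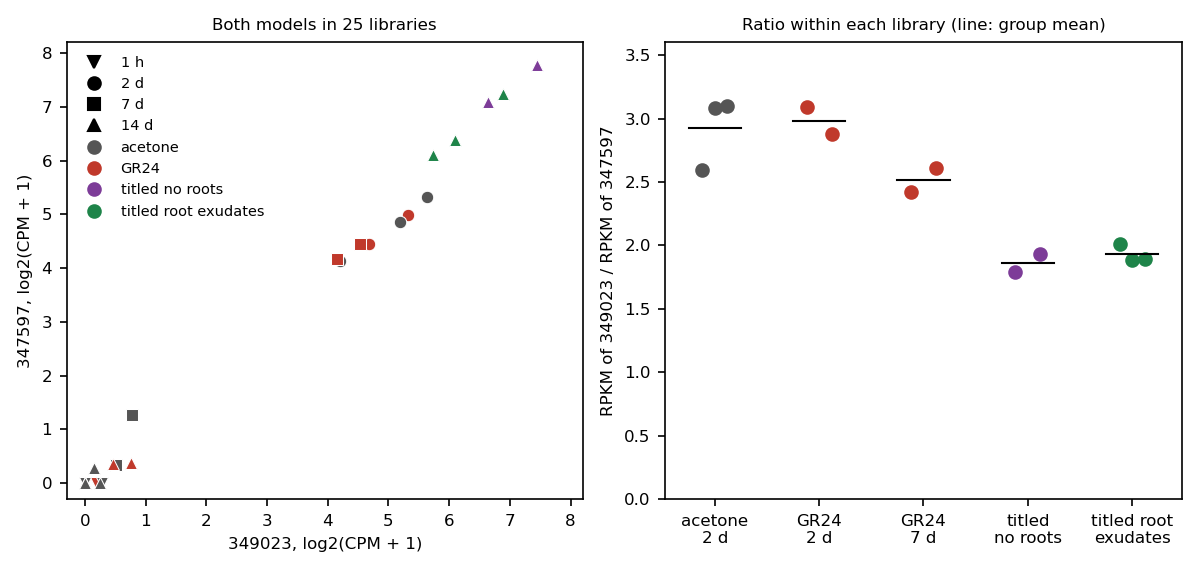
Left, log2(CPM + 1) of 349023 (x axis) against that of 347597 (y axis) in all 25 libraries, with the shape of a point for time and its colour for treatment. Right, the ratio of the RPKM of 349023 to that of 347597 within each library with at least 10 reads of both models (points) and the group mean (line); it lies between 2.42 and 3.10 in the time course and between 1.79 and 2.01 in the root set.

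Per length, the LysM model was the more abundant of the pair. In RPKM, which divides reads by model length and by the gene reads of the library, it was at 140 ± 66.5 against 46.9 ± 19.4 for the collagen-like model in acetone 2 d libraries (SD, n = 3), and at 604 ± 234 against 322 ± 108 in libraries titled controls (SD, n = 2). At its highest, in the libraries titled controls, only 0.558% of all models had a higher mean RPKM than 349023, and 1.52% a higher one than 347597. The ratio of the 2 RPKM values within a library was steadier than either level. It ran from 2.59 to 3.10 in the 2 d acetone libraries, from 2.88 to 3.09 with GR24 at 2 d and from 2.42 to 2.61 with GR24 at 7 d, but from 1.89 to 2.01 and 1.79 to 1.93 in the 2 groups of the root set. All 5 root-set ratios were below all 7 of the time course, and the collagen-like model was thus relatively more abundant there.

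The pattern of each member was most like that of the other. Over all 25 libraries, the Pearson correlation of log2(CPM + 1) between 349023 and 347597 was 0.996, the highest of either model with any of the 14558 models compared. It was also 0.996 within the 20 time-course libraries and within the 5 root-set libraries. The libraries share treatment, time and depth, so these values describe likeness and carry no p. Across all models the median correlation with 349023 was 0.0058, and 68 models were above 0.9.

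Next in likeness to both came model 347197, which the tables leave undescribed and which is 285 bases long, with correlations of 0.993 and 0.987. It was at 0 reads in 4 of the 5 libraries of 1 h, at 45.2 ± 12.0 and 42.2 ± 17.0 CPM at 2 d with GR24 (SD, n = 2) and acetone (SD, n = 3), and at 24.7 ± 0.123 against 1.05 ± 0.753 CPM at 7 d (SD, n = 2 each). In the root set it was at 65.1 ± 31.3 and 122 ± 47.3 CPM, with the groups overlapping as they did for the 2 members. Its library order within the 2 d and root-set groups was that of the members.

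The other close models were lower or had a higher base level. Models 339518 and 182350, both undescribed, had correlations with 349023 of 0.977 and 0.966; the first was at 24.9 ± 8.95 CPM in acetone 2 d (SD, n = 3) and the second did not exceed a group mean of 3.09 CPM in the time course. Model 334422, whose closest database protein is a bacterial crystal protein, reached 32.6 ± 13.3 CPM in acetone 2 d (SD, n = 3) and 13.0 ± 2.01 CPM in GR24 7 d (SD, n = 2), with a correlation of 0.976. Model 11601, noted as a C-type lectin, a family of sugar-binding proteins, had a correlation of 0.967 but was never near 0: it ran from 11.7 ± 0.866 CPM at acetone 14 d (SD, n = 3) to 47.0 ± 4.67 CPM in the libraries titled controls (SD, n = 2).

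Of the remaining models with a described function that came closest, 17221 is annotated as a lipocalin, a carrier of small lipophilic molecules in animals and bacteria. Model 9438 is annotated as an AIG1-type GTPase and also holds the C-type lectin note of 11601, and 179776 is annotated as a WD40-repeat protein. The correlations of 17221, 9438 and 179776 with 349023 were 0.965, 0.954 and 0.954. At 7 d they were at 3.38 ± 0.363, 16.7 ± 0.448 and 9.68 ± 0.629 CPM with GR24, and at 0.523 ± 0.490, 5.12 ± 0.233 and 3.02 ± 0.529 CPM with acetone (SD, n = 2 each). Within the 20 time-course libraries 17221 had rank 4 in likeness to 349023. Models 11601, 9438 and 179776 had ranks of 27, 62 and 56 there, against 5, 9 and 10 over all 25. Within the 5 root-set libraries the correlations with 349023 were 0.870 for 17221, 0.314 for 11601, 0.675 for 9438 and 0.679 for 179776.

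**Figure D3:**
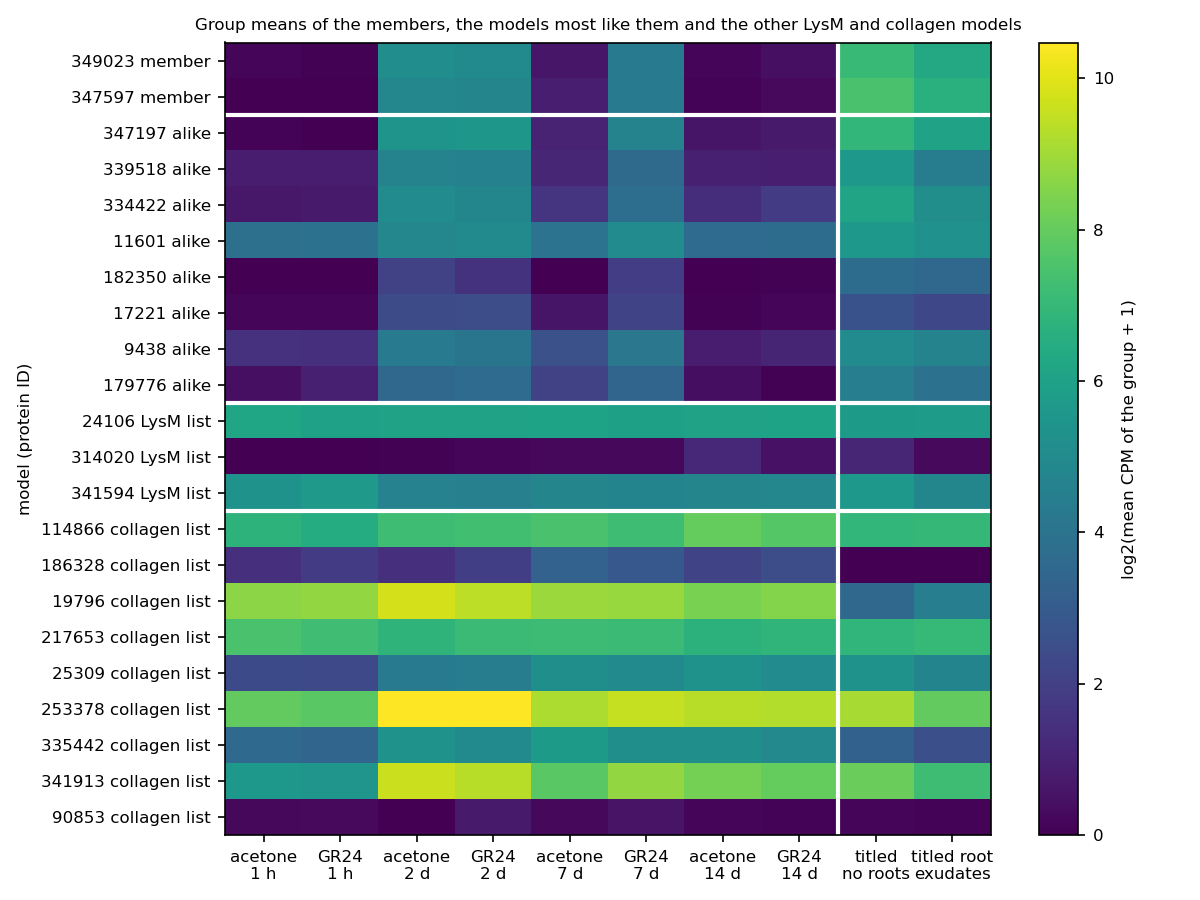
Group means as log2(mean CPM + 1), shown by colour, for the 2 members, 8 named models with a like pattern, and the other models of the LysM and collagen lists (rows), in the 8 time-course groups and the 2 root-set groups (columns, separated by the white line). The models marked alike, picked by their correlation over these libraries, are brighter at 2 d, at 7 d with GR24 and in the root set. Model 24106 is nearly even and 19796 is darkest in the root set.

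The catalogue holds 3 further models with LysM text, and none of them had the course of 349023. Model 24106, with LysM and zinc finger entries, was at 51.1 to 71.3 CPM in all 10 groups. Model 341594, a predicted LysM protein of 1281 bases, was at 50.4 ± 4.62 CPM with GR24 (SD, n = 3) and 39.1 ± 0.233 CPM with acetone (SD, n = 2) at 1 h, and at 22.9 to 28.1 CPM in the groups from 2 d to 14 d. Model 314020, which carries protein kinase entries as well, had 85 reads in all libraries together.

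For 341594 the log2 fold change at 1 h was 0.38 ± 0.11 (SE), with an adjusted p of 0.0285 in edgeR, while DESeq2 called 0 of the LysM models at that time. It fell between 1 h and 14 d by 0.60 on the log2 scale in acetone spores and by 0.84 in GR24 spores, with adjusted p of 1.5e-04 and 8.6e-08 (edgeR). In the root set it was lower in the libraries titled root exudates, at 26.8 ± 2.14 CPM (SD, n = 3), than in those titled controls, at 47.5 ± 11.4 CPM (SD, n = 2), with a log2 fold change of -0.83 ± 0.16 (SE) and an adjusted p of 0.00579 (edgeR). Of the 2 LysM models other than the member that could be tested, 0 passed at 2 d and 0 at 14 d in edgeR, 0 of them at an unadjusted p under 0.05 and 0 in DESeq2. Among all models, edgeR called 10.4% at 1 h, 2.15% at 2 d, 3.25% at 14 d and 15.2% between the root-set titles. Between 1 h and 14 d it called 53.2% in acetone spores and 61.4% in GR24 spores. Per length, the mean over all libraries was 122 RPKM for the LysM member, 90.9 for 24106 and 24.6 for 341594. The member had the highest mean RPKM of the list in 4 of 10 groups, those of 2 d and of the root set. In GR24 7 d libraries it was at 78.7 ± 15.5 RPKM against 89.0 ± 2.48 for 24106 (SD, n = 2), and in the other 5 groups it was at 0.17 to 2.27 RPKM, where 24106 was at 86.0 to 100 RPKM.

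Of 9 other models with collagen text, 8 rest on the KOG3544 note and 25309 on its database match alone. The most abundant per length were 253378 at a mean of 1953 RPKM, 19796 at 655 and 341913 at 614, all far above 347597 at 58.3 RPKM. At 2 d, 1 of 8 tested models changed between treatments: 19796 fell, at 698 ± 45.1 CPM with GR24 (SD, n = 2) and 890 ± 49.1 CPM with acetone (SD, n = 3), a log2 fold change of -0.36 ± 0.08 (SE; adjusted p 0.0343 in edgeR). At 14 d 1 of 8 changed, 114866, at 212 ± 11.3 and 258 ± 3.18 CPM (SD, n = 3 each; log2 fold change -0.29 ± 0.05, adjusted p 9.9e-04 in edgeR). At 7 d 2 of 8 were higher with GR24, 341913 by 0.98 ± 0.10 and 253378 by 0.34 ± 0.09, and 335442 was lower, at -0.52 ± 0.14 (log2, SE); DESeq2 called 2 higher and 0 lower. At 1 h edgeR called 0 of 8, with 1 at an unadjusted p under 0.05, and DESeq2 also called 0. Of all models, edgeR called 10.4% at 1 h, 2.15% at 2 d, 6.43% at 7 d and 3.25% at 14 d.

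The collagen model closest to the members in its course was sought among these 9 after their values were seen, and 341913 came nearest. It went from 47.4 ± 2.45 CPM at acetone 1 h (SD, n = 2) to 785 ± 208 CPM at acetone 2 d (SD, n = 3), and at 7 d it was at 441 ± 85.5 CPM with GR24 and 224 ± 14.6 CPM with acetone (SD, n = 2 each). Unlike the members it stayed high at 14 d, at 257 ± 17.2 and 314 ± 95.0 CPM (SD, n = 3 each), and its root-set levels of 148 ± 27.7 and 270 ± 19.0 CPM were inside its time-course range. In the root set 2 of 7 tested collagen models were lower in the libraries titled root exudates, beside 15.2% of all models called (edgeR). These were 341913, at -0.87 ± 0.16, and 25309, at -0.66 ± 0.17 on the log2 scale (SE, adjusted p 0.0130 and 0.0238 in edgeR). The median of the 7 was -0.66 beside -0.0079 for all models. DESeq2 called 3 lower and 1 higher.

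Over time, 5 of 8 collagen models rose and 2 fell between 1 h and 14 d in acetone spores, beside 53.2% of all models called (edgeR). The median log2 fold change of the 8 was 1.32, beside 0.010 for all models. The largest rises were those of 25309, at 3.29 ± 0.19, and 341913, at 2.74 ± 0.31 (SE), and the falls were those of 217653, at -0.74, and 19796, at -0.30. Of the 9 collagen models, 2 had all 5 root-set libraries below all 20 of the time course, as did 1459 of the 14558 models with a mean of at least 1 CPM, and the other 7 overlapped. Model 19796 was at 326 to 890 CPM in every group of the time course but at 21.3 ± 9.53 and 10.5 ± 4.46 CPM in the root set (SD, n = 3 and 2), and 186328 had 0 reads in all 5 root-set libraries.

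Chitin, the sugar polymer that LysM domains bind, is made by chitin synthases, trimmed by chitinases and altered by deacetylases. The chitin list held 118 models, of which 81 mention chitin in the notes column alone. The keyword also matched organism names, as for 343680, a ricin B lectin whose closest database protein is from Chitinophaga. In edgeR 10 rose and 7 fell of 98 tested at 1 h, 2 and 5 of 99 at 2 d, 4 and 2 of 98 at 7 d, 2 and 4 of 98 at 14 d, and 14 and 12 of 99 between the root-set titles, beside 10.4%, 2.15%, 6.43%, 3.25% and 15.2% of all models called in either direction, with list medians between -0.065 and 0.016 on the log2 scale beside -0.0079 to 0.0015 for all models. The largest rise of the list at 1 h was that of chitin synthase model 67965. It was at 63.39, 65.04 and 67.58 CPM with GR24 and at 1.079 and 1.26 CPM with acetone. Model 136770, noted as a chitinase, was at 349.6 ± 37.9 CPM with GR24 (SD, n = 3) and 185.5 ± 24.1 CPM with acetone (SD, n = 2) at 1 h. Chitin deacetylase model 90007 rose by 0.75 at 1 h, and the chitin-binding model 85061 fell by 0.65 at 2 d on the log2 scale. Between the root-set titles 25335, a chitin deacetylase, was higher by 1.57 ± 0.24 and 85061 by 1.49 ± 0.21 (SE) in the libraries titled root exudates. Model 67965 went the other way, at 0.3952, 0 and 0.2339 CPM there and at 21.65 and 8.87 CPM in those titled controls. The list as a whole had 14 higher and 12 lower.

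Animal collagens undergo prolyl and lysyl hydroxylation, the former needed for a stable triple helix. Of the 5 models found by those words, 4 could be tested, and several of the 5 have other functions by their annotation, such as 339529, a protein disulfide isomerase. With edgeR 0 of 4 passed in any of the treatment comparisons at 1 h, 2 d, 14 d or between the root-set titles. Of all models, 10.4%, 2.15%, 3.25% and 15.2% were called in these, so 0 of 4 tells little. At an unadjusted p under 0.05 there were 1, 2, 0 and 0, and DESeq2 called 0 in each. Between 1 h and 14 d in acetone spores, 83777 rose by 0.57 ± 0.11 and 339529 fell by 0.39 on the log2 scale, with adjusted p of 6.3e-05 and 3.8e-06 (edgeR). In that contrast 53.2% of all models were called.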

How the data were processed

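Per the file headers, the authors deposited, for each library and gene model, a count of total gene reads, a count of unique gene reads (reads matching 1 model) and a model length in bases. The RPKM values deposited by the authors are total gene reads scaled by model length and library total, which was checked against the counts. The aligner is not given in the sources used here. Models are named by protein ID, with no coordinates; 0 of the 2 members matched the reference gene table. Total gene reads were tested in R 4.3.3 with edgeR 4.0.16 (filterByExpr by group, TMM scaling, robust quasi-likelihood fit, 2-sided, Benjamini-Hochberg over all models tested, threshold 0.05), each treatment comparison on its own libraries. Time contrasts came from 1 fit of the 1 h, 2 d and 14 d libraries, and the root effect minus the GR24 effect from the 4 groups of 14 d. CPM values were scaled over all 25 libraries. The pipeline was tested on simulated data. Counts against groups with 1 to 3 reads have 95% exact binomial intervals, and folds against 0 reads take 3 reads over the group as the floor. Neither covers more than counting error, because reads were summed over the libraries of a group and the spread between libraries is left out. Sequenced reads lacking molecular identifiers may also repeat a molecule. Of 20 pairs of replicate libraries 0 were duplicates. Related lists were found by keywords (LysM; collagen; chitin and its deacetylases; prolyl and lysyl hydroxylases). Named models are the members, the 5 closest in Pearson correlation and the 5 closest with a described function, up to 4 called models of each list per comparison by fold change, and the 3 LysM and collagen models with the highest RPKM. The members and lists were chosen with earlier results of these data known. Alternatives were relative log expression scaling, no filter on low counts, DESeq2 1.42.0, unique reads, a replicate block, 7 d libraries in the time fit, and each library left out.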

Additional observations from a re-analysis of the deposited data

Results flagged for a closer look

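In the LysM and collagen lists, 3 models other than the members had an effect that differed between contrasts. This was edgeR's test of the difference itself, with adjustment over all models. Other named models are not covered by that count. In each of these contrasts 3 LysM and 8 collagen models were tested. Of all models, 8.13% were called for the GR24 effect at 2 d minus that at 1 h. For the effect at 14 d minus that at 1 h the share was 6.77%. In the chitin list, 14 models were higher and 7 lower of 99 tested for the root-set effect, by the titles, minus the GR24 effect at 14 d. In that contrast 11.4% of all models were called. For the 2 members no such difference was read, since the groups at 1 h and 14 d held almost none of their reads. The collagen-list model 19796 had a GR24 effect at 2 d minus that at 1 h of -0.486 ± 0.10 (SE; adjusted p 0.00289); its own log2 fold changes were -0.36 ± 0.08 at 2 d, where it passed, and 0.15 ± 0.07 at 1 h, where it did not. For the collagen-list model 114866 the effect between the root-set titles minus the GR24 effect at 14 d was 0.334 ± 0.08 (SE; adjusted p 0.0130), from 0.05 ± 0.08 between the titles and -0.29 ± 0.05 for GR24. The LysM-list model 341594 had a difference of -0.953 ± 0.19 in the same contrast (SE; adjusted p 0.00251), from -0.83 ± 0.16 between the titles and 0.13 ± 0.11 for GR24. For the last 2 models, the root-set direction reverses if the column headings and not the titles are right.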

How the results depend on the processing

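At 2 d the small negative log2 fold change of both members changed sign with the replicate block, to 0.241 for 349023 and 0.186 for 347597 (adjusted p 0.7365 and 0.734), and with single libraries left out, where it ran from -0.499 to 0.206 and from -0.442 to 0.169; no setting brought it past the threshold. At 14 d the replicate numbers showed no pairing (correlations of same-numbered deviations 0.021, -0.064 and -0.0083), and the other comparisons have a group of 2 libraries; at 7 d the groups share 1 number, so no block could be used there. The block gave 504 called models at 2 d in place of 316. For GR24 spores at 14 d against 1 h, where the members have 0 to 11 reads a group and no test is read, the adjusted p was 0.2584 and 0.1938, but 0.0119 and 0.0174 with all models in the fit and 0.0297 and 0.0325 with DESeq2. With so few reads these values show only that the adjusted p moved with the setting. No rise between 1 h and 14 d is concluded from them. The root-set value stayed negative and unpassed with each library left out, from -1.18 to -0.325 and from -1.24 to -0.434, and the 7 d value from 4.74 to 5.43 and from 3.72 to 6.10. Counts of called models moved with libraries left out: 689 to 1418 at 1 h, 46 to 457 at 2 d, 574 to 1315 at 7 d, 250 to 513 at 14 d, 795 to 2919 in the root set, 624 to 1170 and 546 to 1404 for the GR24 effect at 14 d and 2 d minus that at 1 h, and 1054 to 2145 for the root-set effect less that of GR24. With no filter, 831 models were called at 2 d and 863 at 14 d, and DESeq2 called 524 at 7 d. Likeness over the 20 time-course libraries or the 5 root-set libraries was added after the data were seen. With a few reads a group at 1 h and 14 d, depth limits both.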
